A study of Mus musculus with 20 samples.

Results

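The choroid plexus is a fringe of capillaries and secretory epithelium that hangs into the ventricles of the brain. Its epithelial cells make cerebrospinal fluid, seal the border between blood and that fluid with tight junctions, and secrete transthyretin, which carries thyroxine and retinol. Because the tissue is small, its RNA in a library of whole brain depends both on how much of it was taken and on how active its cells were. In bulk RNA, fewer choroid plexus cells and less RNA per cell cannot be told apart.

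The genes described here were chosen by name, from a list of 35 genes known for their expression in this tissue. Of these, 34 had values among the 17211 genes measured, and *Slco1a5* was not analysed here. They were grouped by role into 6 secreted and carrier proteins, 4 receptors, 9 channels, transporters and other membrane proteins, 7 enzymes and intracellular proteins, 6 genes of matrix, junctions and cytoskeleton, and 2 transcription factors. Values are in CPM, the reads of a gene scaled to the total counted in its library.

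Brain mRNA was compared between *Winnie* mice, which are mutant for *Muc2*, the gene of the main intestinal mucin, and develop chronic colitis spontaneously, and C57BL/6 mice of the same colony, all aged 14 weeks per the study's methods. Each genotype had 10 brains, of which 5 were labelled female and 5 labelled male. The study's methods give other numbers of brains per genotype than the labels do, so these groups may not be those that the study compared. Libraries held 16540303 to 23923769 counted reads, and the RNA of the sex-linked genes *Xist* and *Ddx3y* went against the label in 9 of the 10 C57BL/6 brains and in 0 of the 10 *Winnie* brains. Sex is therefore given only as labelled. The library numbers separate the genotypes completely, as well as the labelled sexes within each genotype, so that library order cannot be told apart from either. Labels give each brain its own sample but name no litter or extraction day.

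All 34 genes had reads in every brain, from *Krt8*, a keratin of simple epithelia, with 4 to 14 reads a brain, to *Ttr*, which encodes transthyretin, with 8384 to 23800. Levels can be compared between genes only per length of annotated exon. On that scale *Ttr* had a mean level of 633 CPM per kb, *Enpp2*, encoding the lysophospholipase autotaxin, had 78.0 and *Slc29a4*, encoding a monoamine transporter, had 10.1, whereas *Krt8* had 0.224 and *Tmem72*, encoding a transmembrane protein, had 0.162. *Enpp2* is known to be expressed by oligodendrocytes as well, and several other genes of the list are not confined to the choroid plexus.

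Both transcription factors of the group, *Otx2* and *Msx1*, are homeodomain proteins, and RefSeq promoters (250 bases before to 50 bases after the gene start) were available for 26 of the 34 genes. The stretches below show where their core motifs lie in 3 genes of the list, as examples of the matches found. Positions are on GRCm38.p6, sequences read 5′ to 3′ on the strand of the gene, and capitals mark the match, which is TAATCC or its complement GGATTA in *Mfrp* and *Ace* and TAATTG in *Kcnj13*.
Mfrp, chr9:44101576-44101681, plus strand: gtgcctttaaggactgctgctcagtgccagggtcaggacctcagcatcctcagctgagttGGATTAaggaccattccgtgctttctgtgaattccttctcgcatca
Ace, chr11:105967861-105967944, plus strand: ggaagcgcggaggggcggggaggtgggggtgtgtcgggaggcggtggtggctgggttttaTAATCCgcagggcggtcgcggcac
Kcnj13, chr1:87394782-87394887, minus strand: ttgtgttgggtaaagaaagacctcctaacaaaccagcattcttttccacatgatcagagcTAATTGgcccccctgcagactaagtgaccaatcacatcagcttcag
The match begins 134 bases before the gene start in *Mfrp*, which encodes a membrane frizzled-related protein. In *Kcnj13*, which encodes an inwardly rectifying potassium channel, it begins 98 bases before the gene start. In *Ace*, which encodes angiotensin-converting enzyme, it begins 27 bases from the gene start. Counting both strands, TAATCC occurred in 3 of the 34 promoters of these 26 genes (8.82%) and in 7.06% of the 32851 promoters of the mouse. TAATTG occurred in 5 of the 34 (14.7%) and in 8.0% of all. These letter matches describe the windows only and are not evidence of binding.

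The first question was how much the choroid plexus genes varied between brains of the same genotype. Their summed level ran from 1400 to 1740 CPM in the C57BL/6 brains, with a median of 1660, and from 1060 to 1910 CPM in the *Winnie* brains, with a median of 1510. The *Winnie* range enclosed the C57BL/6 range on both sides. *Winnie* replicates 6 and 7, both labelled male, had the lowest sums of all 20 brains at 1060 CPM each, and *Winnie* replicates 4 and 5, both labelled female, had the highest at 1880 and 1910 CPM. *Ttr* alone made up 41.6% to 57.3% of the sum. Without *Ttr* and *Enpp2* the sums ran from 318 to 403 CPM in C57BL/6 and from 265 to 464 CPM in *Winnie*, with the same 4 brains at the ends.

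**Figure D1:**
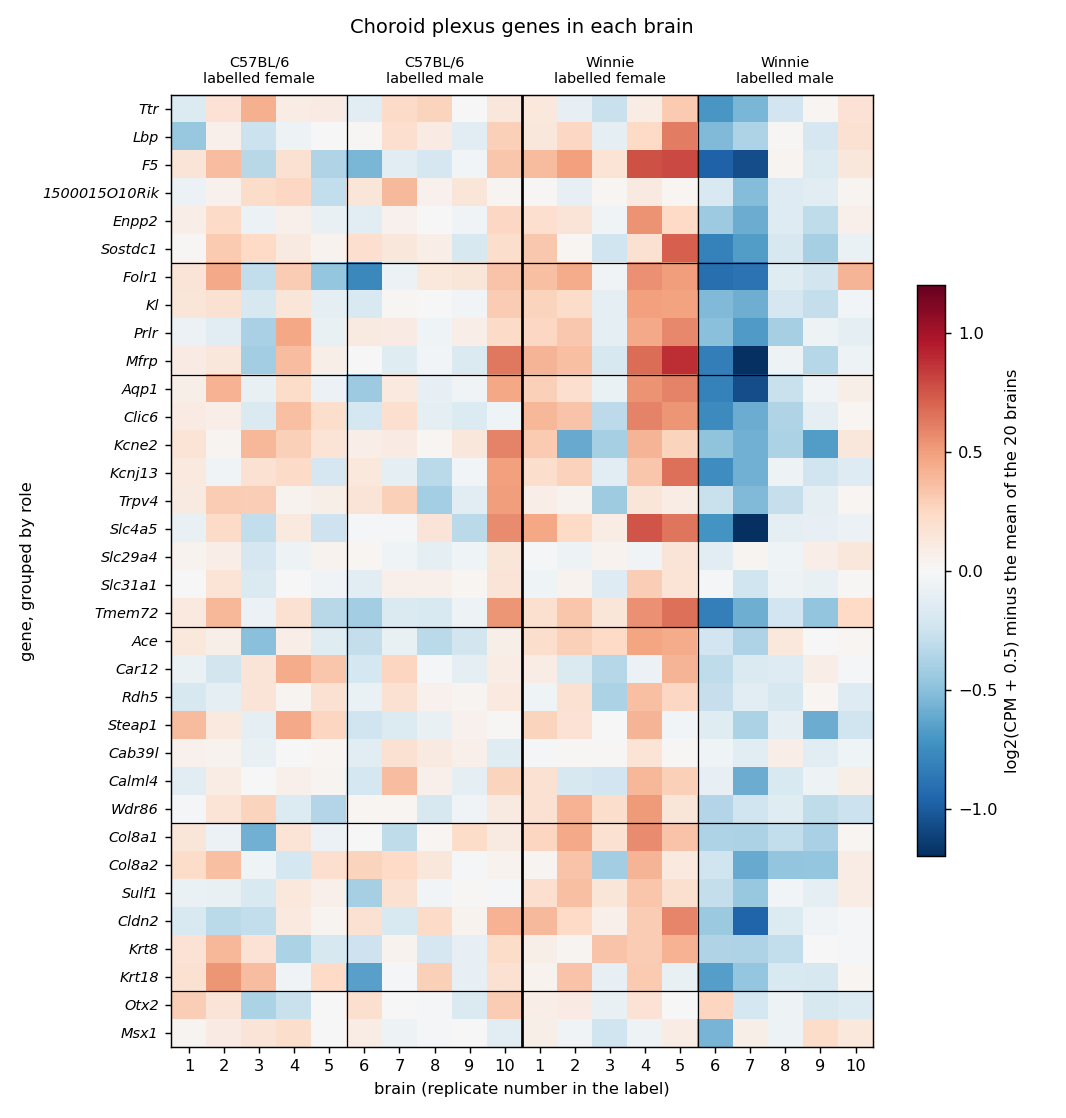
Level of each of the 34 choroid plexus genes (vertical axis, grouped by role) in each of the 20 brains (horizontal axis, grouped by genotype and labelled sex), as log2(CPM + 0.5) minus the mean of the 20 brains, with colours saturating at the ends of the scale. Blue columns mark *Winnie* replicates 6 and 7 across most genes, red columns mark *Winnie* replicates 4 and 5, and the C57BL/6 columns are paler.

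The same brains stood at the ends gene by gene. *Winnie* replicate 7 was the lowest of the 20 brains for 14 of the 34 genes and replicate 6 for 9, and *Winnie* replicate 4 was the highest for 12 and replicate 5 for 11. These 4 libraries held 18446079 to 19106416 reads, where the 20 libraries ran from 16540303 to 23923769, and an effect of depth was not tested. The share of reads from mitochondrial genes was 7.49% and 7.36% in replicates 6 and 7, and 5.96% and 10.8% in replicates 4 and 5, which are the lowest and the highest shares of the 20 brains.

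The coefficient of variation (SD over mean) across brains had a median over the 34 genes of 16% in C57BL/6 (range 7.12% to 37.7%) and of 27.8% in *Winnie* (range 6.32% to 45.3%). Over all genes the medians were 10.7% and 10%. Those genes were not matched to the 34 in level, and an effect of level on the coefficient was not tested. The coefficient was higher in *Winnie* for 29 of the 34 genes, against 45.1% of all genes. It was widest in *Winnie* for *Mfrp*, at 45.3% against 22.6% in C57BL/6, and it hardly moved for *Slc29a4*, at 6.37% against 7.12%, and for *Cab39l*, which encodes a scaffold of the kinase LKB1, at 6.32% against 7.43%. When limma was applied to the absolute deviations of every gene from its genotype median, 0 of the 34 genes passed an FDR of 0.05 (0.0% of all genes did), and 8 had an unadjusted p under 0.05, all wider in *Winnie* (1.58% of all genes had such a p in that direction). The wider spread in *Winnie* is thus a description of these 20 brains, and it did not pass a test corrected over all genes.

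The next question was whether the genes moved together. Over the 20 brains, the Pearson correlation of log2(CPM + 0.5) with *Ttr* had a median of 0.59 over the other 33 genes and was positive for 32 of them, where the median over all other genes measured was -0.04. *Sostdc1*, which encodes a secreted antagonist of BMP and Wnt signalling, followed *Ttr* most closely, with r = 0.81 (permutation p = 5e-05) and Spearman's rho = 0.75 (permutation p = 0.00024). *Aqp1*, the water channel of the epithelium, had r = 0.74 (permutation p = 0.00044) and rho = 0.52 (permutation p = 0.0197). At the other end, the homeodomain factor *Otx2* had r = -0.23, *Slc29a4* had 0.07, *Ace* had 0.11, the metalloreductase gene *Steap1* had 0.18 and *Col8a1*, which encodes a chain of type VIII collagen, had 0.18.

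This relation rested largely on a few *Winnie* brains. Within the 10 *Winnie* brains the median correlation with *Ttr* was 0.75, and within the 10 C57BL/6 brains it was 0.09, with 20 of the 33 genes positive. Without *Winnie* replicates 6 and 7, the brains farthest from the median of *Ttr*, the median over the remaining 18 brains was 0.23, and r fell to 0.58 for *Sostdc1* and to 0.41 for *Aqp1*. The high correlations of *Calml4*, a calmodulin-like gene, and of the keratin gene *Krt18* were 0.70 and 0.68 with all brains and 0.69 and 0.43 without those 2 brains. That of *Kcne2*, a potassium channel subunit, was 0.67 and 0.56.

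A limma fit of every gene on the level of *Ttr*, with genotype as a term, gave the slope of each gene on the log2 scale and an FDR over all 17210 other genes. Only *Sostdc1* (slope 1.01, FDR = 0.0205) and *Aqp1* (slope 1.23, FDR = 0.0297) of the 33 genes passed an FDR of 0.05, where 0.0697% of all genes passed. An unadjusted p under 0.05 with a positive slope was found for 25 of the 33 genes, against 4.46% of all genes. Without *Winnie* replicates 6 and 7, 0 of the 33 passed the FDR (0.0% of all genes) and 7 had such a p, against 2.53% of all.

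A tighter group existed within the list that did not depend on *Ttr*. Over the 561 pairs of the 34 genes the median correlation was 0.53, with 53 pairs above 0.8. Within C57BL/6 the median was 0.19, with 27 pairs above 0.8 and 168 negative. Within *Winnie* it was 0.73, with 213 pairs above 0.8 and 13 negative. Without *Winnie* replicates 6 and 7 it was 0.38, with 26 pairs above 0.8, so the list as a whole depended on those brains. The tightest pair was *Enpp2* with *Kl*, which encodes klotho, a receptor partner for FGF23, at 0.96 over all brains, 0.93 within C57BL/6 and 0.97 within *Winnie*. *F5*, encoding coagulation factor V, and *Folr1*, encoding the folate receptor alpha, reached 0.94, with 0.93 and 0.97 within the genotypes. *Kl* with *Aqp1* had 0.94 (0.89 and 0.95), and *F5* with *Tmem72* had 0.93 (0.94 and 0.94). These pairs were picked after their values were seen. Correlated to the mean of the other 33 standardized genes, *Kl* had r = 0.98, with 0.92 within C57BL/6 and 0.97 without *Winnie* replicates 6 and 7, so that its covariation did not hang on those brains. *Aqp1* and *Enpp2* each had 0.96 (0.95 and 0.94 within C57BL/6). *Ttr* itself had 0.70, but 0.05 within C57BL/6, and *Slc29a4* at 0.22, *Otx2* at 0.23 and *Msx1* at 0.24 were the least like the rest. All points of these correlations share the library of each brain, and the correlations are descriptions.

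**Figure D2:**
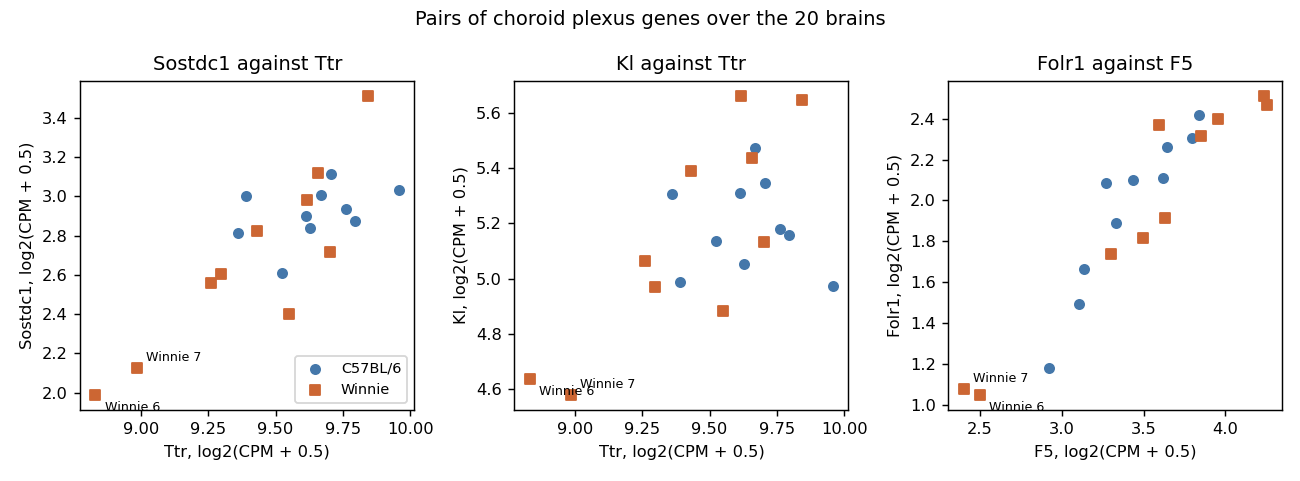
Log2(CPM + 0.5) of *Sostdc1* against *Ttr*, *Kl* against *Ttr* and *Folr1* against *F5* in the 20 brains, with circles for C57BL/6 and squares for *Winnie*. *Winnie* replicates 6 and 7 lie at the lower left of all 3 plots, and the C57BL/6 brains form a cloud in the first 2 plots and a line in the third.

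Among genes outside the list, *Map6d1*, which encodes a microtubule-associated protein, had the highest correlation with *Ttr* over the 20 brains, at 0.87, with 0.69 within C57BL/6 and 0.93 within *Winnie*. It was followed by *Rsph1*, encoding a radial spoke protein of motile cilia, at 0.83, *Fam132a* at 0.82, *Colq* at 0.80, *Tnfrsf22* at 0.79, *Frem2* at 0.79, *Pltp* at 0.78, *Opalin* at 0.78, *2810459M11Rik* at 0.78 and *Sox10* at 0.76. *Opalin* and *Sox10* are known as genes of oligodendrocytes. These genes were ranked by the correlation given, which is a description of these brains.

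The main comparison asked whether the choroid plexus genes differed between *Winnie* and C57BL/6 brains. None of them did after correction: in a limma fit of log2(CPM + 0.5) across all genes, 0 of the 34 passed an FDR of 0.05, against 2.52% of all genes, and 0 passed the threshold of the study's methods (FDR under 0.001 with at least a 1.5-fold change in either direction), which 0.0% of all genes passed. With edgeR and with DESeq2 on the recovered reads, 0 of the 34 passed an FDR of 0.05 as well, against 3.0% and 5.68% of all genes. An unadjusted p under 0.05 was found for 5 of the 34 genes with limma, against 17.6% of all genes, and for 4 with each of the other tools, against 18.8% and 18.5%. Of the 5, *Ace* was higher in *Winnie* (9.53% of all genes were higher at such a p), and *Kcne2*, *Trpv4*, *1500015O10Rik* and *Col8a2* were lower (8.08%). Without regard to any test, 10 of the 34 genes had a higher estimate in *Winnie* (51.0% of all genes) and 24 a lower one (49.0%). The median log2 fold change of the 34 genes was -0.05, with a range of -0.40 to 0.24, and the median of all genes was 0.00. No gene of the list had *Winnie* and C57BL/6 values that did not overlap, and 0.0291% of all genes did.

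**Figure D3:**
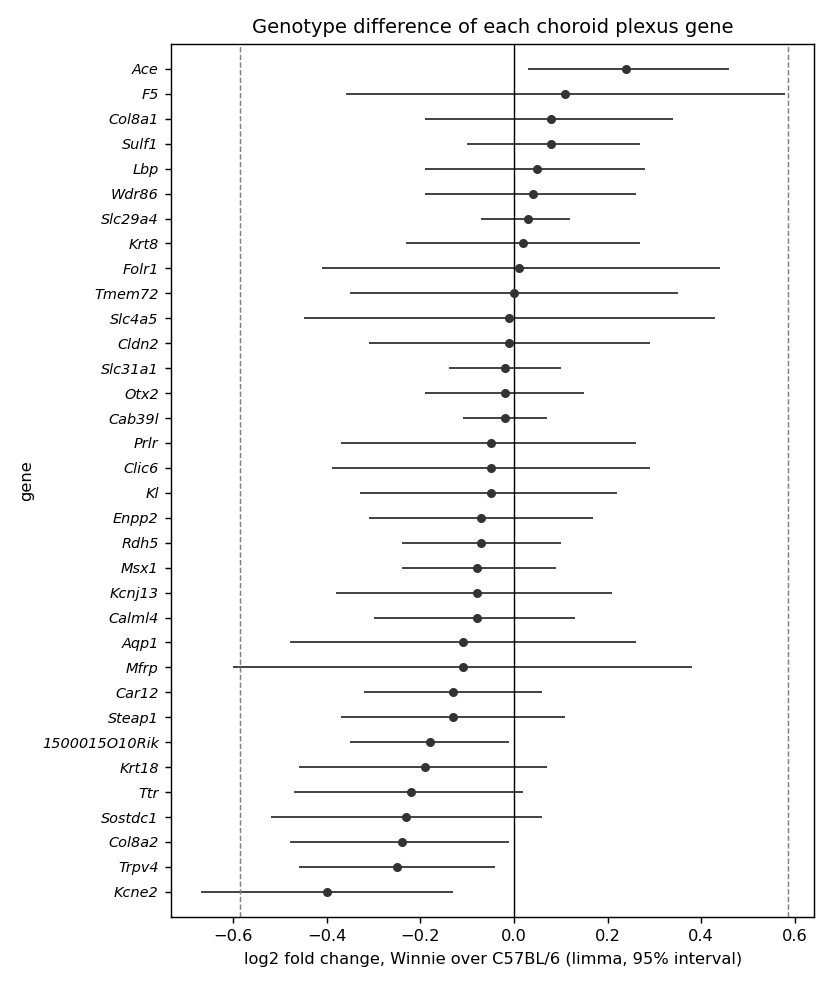
Log2 fold change of *Winnie* over C57BL/6 (horizontal axis) for each of the 34 choroid plexus genes (vertical axis), with points for the limma estimate over 10 brains a genotype, bars for its 95% interval and dashed lines at a 1.5-fold change in either direction. The estimates lie between -0.40 for *Kcne2* and 0.24 for *Ace*, and 29 of the intervals include 0.

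Among the secreted proteins, *Ttr* had 657 to 995 CPM in C57BL/6 with a median of 802, and 455 to 917 CPM in *Winnie* with a median of 720. The means were 803 ± 102 and 698 ± 148 CPM (SD, n = 10 each), and the log2 fold change was -0.22 (SE 0.117, 95% interval -0.47 to 0.02, FDR = 0.338). The groups overlapped over most of their range. *Enpp2* had 406 to 527 CPM (median 453) in C57BL/6 and 293 to 647 CPM (median 446) in *Winnie*, a log2 fold change of -0.07 (FDR = 0.813). *Sostdc1* had 5.60 to 8.15 CPM (median 7.07) and 3.47 to 10.9 CPM (median 5.83), a log2 fold change of -0.23 (FDR = 0.412). In both genes the *Winnie* brains lay above as well as below all C57BL/6 brains. *1500015O10Rik*, which encodes the secreted peptide augurin, was the gene of this group with an unadjusted p under 0.05, with a log2 fold change of -0.18 and an FDR of 0.244.

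The 4 receptor genes had log2 fold changes of -0.11 to 0.01. *Kl* had 30.9 to 43.9 CPM (median 35.4) in C57BL/6 and 23.4 to 50.1 CPM (median 33.7) in *Winnie*, with a log2 fold change of -0.05 (95% interval -0.33 to 0.22). *Prlr*, the prolactin receptor, had 16.7 to 30.5 CPM (median 22.4) and 13.6 to 33.1 CPM (median 20.7), also with -0.05 (95% interval -0.37 to 0.26). The intervals leave changes of either sign. Exons of *Mfrp* overlap those of *C1qtnf5* on the same strand and exons of *Prlr* those of *Gm21973*, and the values of both are uncertain for that reason.

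The largest genotype difference was that of *Kcne2*, which encodes a potassium channel subunit of the apical membrane. It had 3.27 to 5.13 CPM (median 3.62) in C57BL/6 and 1.84 to 4.45 CPM (median 2.35) in *Winnie*. The lower *Winnie* brains lay below all C57BL/6 brains, whereas the highest reached into the C57BL/6 range. Its log2 fold change was -0.40 (SE 0.132, 95% interval -0.67 to -0.13, FDR = 0.0993), with an unadjusted permutation p of 0.0152. It did not pass the FDR of 0.05, except when *Winnie* replicate 4 was left out (log2 fold change -0.46, FDR = 0.0419). *Trpv4*, a calcium channel that opens on cell swelling, had 2.90 to 5.88 CPM (median 4.44) and 2.63 to 4.5 CPM (median 3.87), a log2 fold change of -0.25 (FDR = 0.195). *Aqp1* had 2.76 to 5.59 CPM (median 3.95) and 1.61 to 6.18 CPM (median 3.96), a log2 fold change of -0.11 (FDR = 0.799). The medians of *Aqp1* were alike, and its extremes were both *Winnie* brains. *Slc29a4*, with 25.0 to 32 CPM (median 28.6) and 26.4 to 32.1 CPM (median 29.0), and the copper transporter gene *Slc31a1*, with 22.1 to 28.1 CPM (median 25.3) and 21.1 to 30.8 CPM (median 24.4), had the narrowest intervals of this group, at -0.07 to 0.12 and -0.14 to 0.10 on the log2 scale.

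Of the enzymes, *Ace* had the largest fold change in the other direction. It had 24.9 to 38.9 CPM (median 32.7) in C57BL/6 and 27.4 to 49.6 CPM (median 40.0) in *Winnie*, a log2 fold change of 0.24 (SE 0.104, 95% interval 0.03 to 0.46, FDR = 0.224), and the groups overlapped. *Car12*, a carbonic anhydrase, had 24.4 to 38.8 CPM (median 29.2) and 22.3 to 37.8 CPM (median 26.3), *Cab39l* had 33.3 to 42.0 CPM (median 37.8) and 33.6 to 41.3 CPM (median 36.8), and *Steap1* had 0.883 to 1.73 CPM (median 1.17) and 0.578 to 1.66 CPM (median 1.05). Their log2 fold changes of -0.13, -0.02 and -0.13 all had intervals that included 0. *Calml4* had 1.27 to 2.14 CPM (median 1.61) and 0.859 to 2.20 CPM (median 1.44). The exons of *Rdh5*, a retinol dehydrogenase gene with a log2 fold change of -0.07, overlap those of *Bloc1s1* on the same strand.

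Among the genes of matrix, junctions and cytoskeleton, *Col8a2*, encoding the partner chain of *Col8a1*, had 3.99 to 6.17 CPM (median 5.33) in C57BL/6 and 2.90 to 6.38 CPM (median 4.35) in *Winnie*, a log2 fold change of -0.24 (FDR = 0.267). *Col8a1* had 3.22 to 5.96 CPM (median 5.08) and 3.73 to 7.72 CPM (median 5.47), a log2 fold change of 0.08 (FDR = 0.810). Both sets overlapped. *Sulf1*, an extracellular heparan sulfatase, had 15 to 22.7 CPM (median 19.7) and 14.4 to 25.8 CPM (median 21.7), and *Krt18* had 0.552 to 1.89 CPM (median 1.38) and 0.542 to 1.59 CPM (median 1.04). *Otx2* had 6.90 to 11.4 CPM (median 9.16) and 7.83 to 11 CPM (median 8.93), with a log2 fold change of -0.02, and *Msx1* had a log2 fold change of -0.08. Exons of *Otx2* overlap those of *Gm49154* on the same strand and of *Otx2os1* on the other.

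The low *Winnie* brains bore on these values. Without *Winnie* replicates 6 and 7, *Ace* passed the FDR of 0.05 (log2 fold change 0.35, FDR = 0.0368), as did 1.7% of all genes, the median log2 fold change of the 34 genes was 0.06, and 20 of the 34 genes instead of 10 had a higher estimate in *Winnie* (49.8% of all genes). The small negative changes of *Enpp2*, *Kl*, *Prlr* and *Aqp1* then had the opposite sign, at 0.05, 0.08, 0.09 and 0.11, and none of these passed the FDR in either set of brains.

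Since the highest and the lowest *Winnie* brains differed in labelled sex, the labelled sexes were compared within each genotype, a comparison that was added after these values were seen. In *Winnie*, 33 of the 34 genes were higher in the brains labelled female than in those labelled male, against 45.6% of all genes, with a median log2 difference of 0.44 (all genes -0.01). An unadjusted p under 0.05 was found for 23 of the 34 genes, all higher in labelled females, against 3.25% of all genes in that direction. They were 4 of 4 receptor genes, 6 of 6 genes of matrix, junctions and cytoskeleton, 6 of 9 channel, transporter and membrane genes, 4 of 6 genes of secreted proteins, 3 of 7 genes of enzymes and intracellular proteins and 0 of 2 transcription factor genes. After correction over all genes 1 of the 34, *Col8a1*, passed an FDR of 0.05, where 0.0639% of all genes passed, and 3 did with edgeR (0.0813%). Within *Winnie* the 34 genes moved together (median pair correlation 0.73), so these counts are not of independent genes. The same holds for the later counts of genes in this contrast.

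*Col8a1* had 5.81, 6.14, 6.54, 7.11 and 7.72 CPM in the *Winnie* brains labelled female and 3.73, 3.76, 3.79, 4.02 and 5.13 CPM in those labelled male. The groups did not overlap, and the log2 difference was 0.65 (SE 0.128, FDR = 0.0402). The call was a narrow one: it was lost on leaving out any of C57BL/6 replicates 5, 6 and 8 and *Winnie* replicates 1, 2 and 4 to 9, with an FDR of up to 0.264, and the difference itself stayed between 0.59 and 0.72. *Kl* had 32.9, 41.4, 42.8, 49.6 and 50.1 CPM in labelled females and 23.4, 24.4, 29.0, 30.8 and 34.6 CPM in labelled males, a log2 difference of 0.60 (SE 0.120, FDR = 0.0730 with limma and 0.0338 with edgeR). Its groups overlapped by 1 brain on each side. *Enpp2* had 431, 494, 512, 525 and 647 CPM and 293, 329, 359, 399 and 462 CPM, a log2 difference of 0.51 (SE 0.113, FDR = 0.152 with limma and 0.050 with edgeR). *Ttr* had 613, 689, 784, 808 and 917 CPM and 455, 506, 628, 750 and 832 CPM, a log2 difference of 0.29 (SE 0.159, FDR = 0.689), and its groups overlapped widely.

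All 5 *Winnie* brains labelled female lay above all 5 labelled male for 9 of the 34 genes, against 0.726% of all genes. Chosen after their values were seen, they were *F5*, *Slc4a5*, *Ace*, *Steap1*, *Wdr86*, *Col8a1*, *Sulf1*, *Cldn2* and *Krt8*. *Slc4a5*, which encodes a sodium bicarbonate cotransporter, had 7.0 to 11.4 CPM and 2.42 to 6.19 CPM in the 2 labelled sexes, and *F5* had 11.9 to 18.6 CPM and 4.78 to 11.6 CPM. *Cldn2*, a pore-forming claudin of the epithelium's tight junctions, had 4.20 to 6.28 CPM and 1.82 to 3.95 CPM. *Ace* had 41.2 to 49.6 CPM in labelled females and 27.4 to 38.7 CPM in labelled males, and its 5 labelled females also lay above all 10 C57BL/6 brains. The largest log2 difference was that of *Mfrp*, at 0.96 (SE 0.253, FDR = 0.282), with 7.21 to 15.8 CPM and 2.90 to 7.96 CPM. Not all genes of the list took part: the log2 difference was 0.00 for *Slc29a4* and *Msx1*, 0.09 for *Car12* and *Cab39l*, and 0.13 for *Otx2*.

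**Figure D4:**
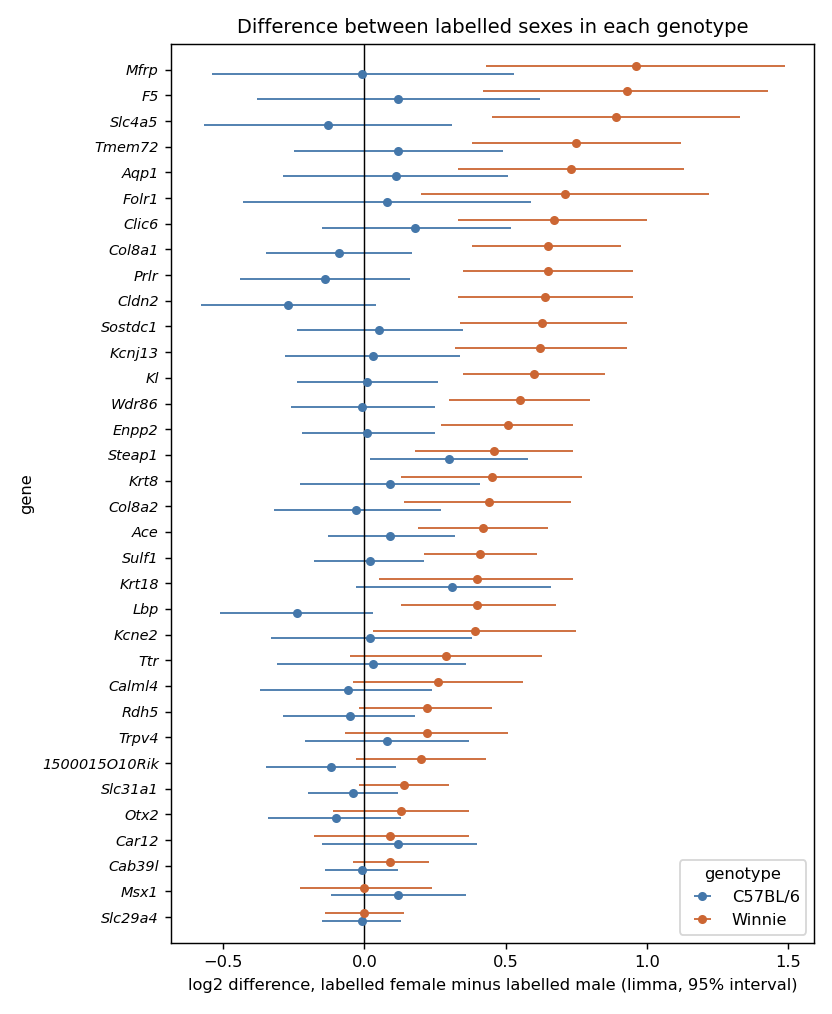
Log2 difference between brains labelled female and labelled male (horizontal axis) for each of the 34 choroid plexus genes (vertical axis), with limma estimates and 95% intervals over 5 against 5 brains, orange for *Winnie* and blue for C57BL/6. The *Winnie* estimates run from 0.00 to 0.96, and the C57BL/6 estimates run from -0.27 to 0.31 around a median of 0.02.

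Without *Winnie* replicates 6 and 7 the *Winnie* difference was smaller but kept its direction in 32 of 34 genes (48.5% of all genes had that direction), with a median of 0.34, 18 genes with an unadjusted p under 0.05 in that direction (2.05% of all genes) and 0 past the FDR (0.0% of all genes). In C57BL/6 the median difference between the labelled sexes was 0.02, with 0 of the 34 genes past the FDR (0.0% of all genes) and 1, *Steap1*, with an unadjusted p under 0.05 (5.32% of all genes), but there the labels went against the RNA in 9 of the 10 brains. The difference between the genotypes in this contrast was tested as an interaction. For the same reason this interaction is one of genotype with label, not with the sex that the RNA shows. It had a median of 0.43 on the log2 scale, 0 of 34 genes passed an FDR of 0.05 (0.0697% of all genes), the smallest FDR was 0.180 for *Cldn2*, and 18 genes had an unadjusted p under 0.05, all with a positive term (2.8% of all genes). Without *Winnie* replicates 6 and 7 the last count was 8 (1.81% of all genes). *Prlr* passed when C57BL/6 replicate 4 was left out (interaction 0.91, FDR = 0.0219).

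The brains of both genotypes were also compared by label, although the RNA of 9 of the 10 C57BL/6 brains went against the label, so that most comparisons of like label set unlike RNA sexes against each other. No values with the labels turned are given, since groups were taken from the labels alone. Set against C57BL/6 brains of the same label, *Winnie* labelled females had a median log2 difference of 0.19 over the 34 genes, with 9 genes at an unadjusted p under 0.05, all higher (7.02% of all genes). *Winnie* labelled males had a median of -0.29, with 16 genes at such a p, all lower (4.85% of all genes), and with 3 lower when replicates 6 and 7 were left out (4.28%). In neither set did a gene of the list pass an FDR of 0.05 (0.256% and 0.383% of all genes).

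**Figure D5:**
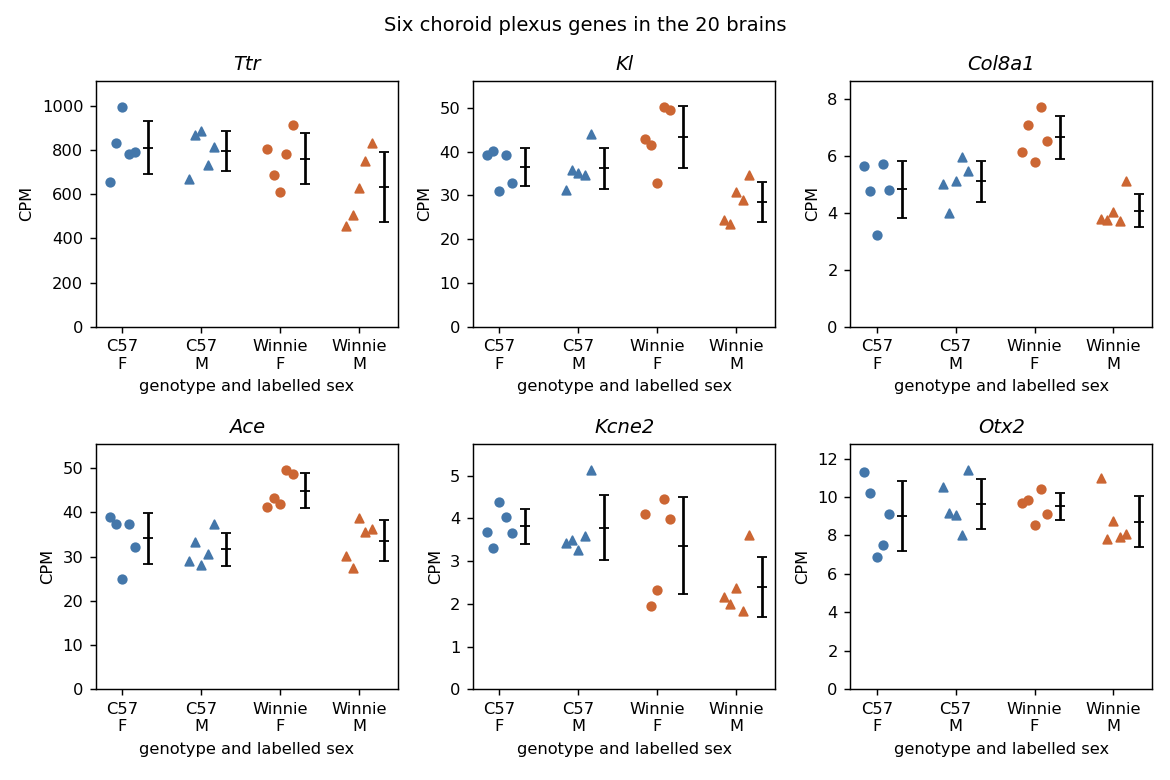
CPM of 6 choroid plexus genes (vertical axis, starting at 0) in the 5 brains of each genotype and labelled sex (horizontal axis, C57 for C57BL/6, F and M for labelled female and male), with the mean and SD to the right of each group. *Col8a1* and *Ace* separate the *Winnie* brains labelled female from those labelled male, whereas *Ttr*, *Kl*, *Kcne2* and *Otx2* overlap.

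Other gene lists were read beside these values. A list of 15 further choroid plexus genes, which includes genes also expressed by neurons such as the serotonin receptor gene *Htr2c*, had 14 genes with a higher estimate in *Winnie* labelled females (45.6% of all genes), 7 of them with an unadjusted p under 0.05 (3.25% of all genes in that direction), and a median log2 difference of 0.23. *Slc13a4*, a sulfate transporter gene of the choroid plexus and the meninges, had the largest difference by p, at 0.36 (FDR = 0.156). The mean of these 15 genes correlated with the mean of the 34 at 0.75 over the 20 brains. Between genotypes 0 of the 15 passed an FDR of 0.05. Here 10 of the 15 had a higher estimate in *Winnie* (51.0% of all genes), unlike the 34, of which 10 did. An unadjusted p under 0.05 was found for 3 of the 15, all higher in *Winnie* (9.53% of all genes in that direction). They were *Wfikkn2* (log2 fold change 0.33), *Slc13a4* (0.27) and *Trpm3* (0.25). *Slc16a8* was the gene of these lists that had 0 reads in at least 1 brain.

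Lists for neighbouring cells were compared in the same way. The 13 genes of ependymal cells, the ciliated lining of the ventricles, summed to 38.4 to 50.7 CPM in *Winnie* labelled females and 36.1 to 50.5 CPM in labelled males. In that contrast 10 of the 13 had a higher estimate in labelled females (45.6% of all genes), with a median log2 difference of 0.15. Only 1, *Spag17*, had an unadjusted p under 0.05, and it was higher (3.25% of all genes in that direction). The mean of the 13 genes correlated with that of the 34 genes at 0.67 over all brains, 0.83 in *Winnie* and 0.21 in C57BL/6. The lowest sums, 36.4 and 36.1 CPM, were those of *Winnie* replicates 6 and 7, and the sums of replicates 4 and 5 were 49.4 and 50.7 CPM. The 12 genes of meningeal fibroblasts summed to 149 to 179 CPM in labelled females and 147 to 158 CPM in labelled males. Of these 10 of 12 had a higher estimate in labelled females (45.6% of all genes), with a median log2 difference of 0.16. An unadjusted p under 0.05 was found for 5 of them. Of the 5, *Ogn* (0.36), *Col1a1* (0.35), *Lum* (0.30) and *Col1a2* (0.21) were higher in labelled females (3.25% of all genes) and *Dcn* (-0.18) was lower. Most markers of meningeal fibroblasts and ependymal cells thus had estimates in the same direction as the choroid plexus genes in this contrast. Their medians were smaller than the 0.44 of the 34 genes, and the shared direction was not tested. The mean of the meningeal genes correlated with that of the 34 genes at 0.23. In this list *Aebp1*, which encodes a matrix-associated protein, passed an FDR of 0.05 between genotypes (1 of 12 genes, against 2.52% of all genes), with 18.6 to 25.8 CPM (median 21.8) in C57BL/6 and 22.5 to 32.5 CPM (median 27.1) in *Winnie*, a log2 fold change of 0.29 (limma FDR = 0.0112). The 9 endothelial genes summed to 233 to 273 CPM in labelled females and 231 to 273 CPM in labelled males. A higher estimate in labelled females was found for 4 of the 9 (45.6% of all genes), with a median log2 difference of -0.01. Of the 2 with an unadjusted p under 0.05, *Ly6c1* (-0.31) was lower in labelled females and *Itm2a* (0.20) was higher. Between genotypes 1 of the 9 passed, *Cldn5*, the claudin of brain endothelium, with 13.1 to 19.7 CPM (median 15.8) in C57BL/6 and 8.77 to 15.4 CPM (median 11.7) in *Winnie*, a log2 fold change of -0.47 (limma FDR = 0.00331). The genotypes overlapped for both genes, and 0 of the 13 ependymal genes passed. The part of these cell types in the results for the choroid plexus genes was not tested.

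Of a list of 12 genes of fluid secretion and ion transport, which are not restricted to the choroid plexus, 2 passed an FDR of 0.05 between genotypes, against 2.52% of all genes. *Car2*, the cytosolic carbonic anhydrase, had 176 to 202 CPM (median 188) in C57BL/6 and 141 to 186 CPM (median 156) in *Winnie*, a log2 fold change of -0.23 (FDR = 0.0112). *Atp2b3*, a plasma membrane calcium pump gene, had 109 to 139 CPM (median 131) and 130 to 155 CPM (median 145), a log2 fold change of 0.17 (FDR = 0.0393). Both overlapped between genotypes. *Slc12a2*, the sodium-potassium-chloride cotransporter gene, had a log2 fold change of 0.14 (FDR = 0.224). An unadjusted p under 0.05 was found for 6 of the 12 genes (17.6% of all genes), and 4 of these 6 were higher in *Winnie*. Between the labelled sexes of *Winnie*, 7 of the 12 had a higher estimate in labelled females (45.6% of all genes), with a median log2 difference of 0.02. The 2 with an unadjusted p under 0.05, *Car4* (-0.23) and *Slc4a7* (-0.20), were both lower in labelled females. The mean of this list correlated with that of the 34 genes at -0.07 over all brains, 0.54 in C57BL/6 and -0.25 in *Winnie*. *Car2* is abundant in oligodendrocytes. Of 11 genes of thyroid hormone and retinol handling, the cargo of transthyretin, 0 passed an FDR of 0.05 between genotypes and 1, *Thrb*, had an unadjusted p under 0.05 (log2 fold change -0.09). Their mean correlated with that of the 34 genes at -0.41. In *Winnie*, 5 of these 11 genes had a higher estimate in labelled females (45.6% of all genes), with a median log2 difference of -0.02. The 2 with an unadjusted p under 0.05, *Crym* (-0.30) and *Thra* (-0.13), were both lower in labelled females.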

How the data were processed

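The study extracted RNA from brains, selected polyadenylated RNA and sequenced paired ends. Per the labels, the authors counted reads on GRCm38 with featureCounts, and the deposited values are CPM, reads scaled to each library's total of counted reads. The strand setting is not given in the sources used here. All values were whole multiples of 1 read (tolerance 0.02 reads), worth 0.0418 to 0.0605 CPM, so whole reads were recovered and used for edgeR and DESeq2. A value of 0 is 0 counted reads, which still allows an expected count of up to 3 reads, 0.125 to 0.181 CPM.

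Groups were the 10 C57BL/6 and 10 *Winnie* brains of the labels. The main test was limma (3.58.1, R 4.3.3) on log2(CPM + 0.5), with trend and robust variance, over all 17211 genes with Benjamini-Hochberg correction, and fold changes are on that scale. Labelled sex was fitted as 4 groups, slopes on *Ttr* with genotype, and spread on absolute deviations. Permutation tests were two-sided with 100000 resamples, for differences of means and for correlations. edgeR 4.0.16 (TMM, quasi-likelihood) and DESeq2 1.42.0 were alternatives, beside other pseudocounts, a filter on low values, other scalings, covariates, a replicate block and leaving out brains. The script was tested on simulated data. The members and lists were chosen with earlier results of these data known. Genes were named if they were *Ttr*, passed the FDR, were among the 10 highest in CPM, among the 5 largest genotype fold changes, or among the 5 highest or 5 lowest in correlation with *Ttr*. Outside the list, the 10 genes closest to *Ttr* and genes of the marker lists past the FDR were named. Others named were chosen after their values were seen. Exon lengths and overlaps were taken from GENCODE M21. Replicate numbers did not pair the samples. P-values of the group comparisons set each difference against the spread between these brains. They do not account for library order, which cannot be told apart from genotype or labelled sex.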

Additional observations from a re-analysis of the deposited data

Results flagged for a closer look

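In 204 groups of brains tested with Dixon's criterion, 8 held a brain far from the others, and chance alone gives about 1 in 20 groups. The number flagged was thus no higher than chance alone gives. The groups also overlap, since those of a genotype contain those of its labelled sexes. In *Winnie*, replicate 7 had 3.38 CPM of *1500015O10Rik*, below the 4.39 to 5.47 CPM of the other 9 brains, and replicate 5 had 37.8 CPM of *Car12*, above the 22.3 to 30.2 CPM of the others. Among *Winnie* brains labelled female, replicate 3 had 2.85 CPM of *Trpv4*, against 4.13 to 4.5 CPM, and replicate 4 had 41.3 CPM of *Cab39l*, against 36.4 to 37.3 CPM. Among *Winnie* brains labelled male, replicate 10 had 5.13 CPM of *Col8a1*, against 3.73 to 4.02 CPM, and replicate 6 had 11 CPM of *Otx2*, against 7.83 to 8.75 CPM, although it was the lowest of the 20 brains for 9 other genes of the list. C57BL/6 replicate 10 stood above the other labelled males for *Mfrp*, with 13.2 CPM against 7.31 to 8.34 CPM, and for *Kcne2*, with 5.13 CPM against 3.27 to 3.58 CPM. The causes were not tested.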

How the results depend on the processing

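Under 11 other settings, 0 genes of the list passed the FDR of 0.05 between genotypes except without *Winnie* replicates 6 and 7, where 1 did. When each brain was left out in turn, the count ran from 0 to 1 (1 without *Winnie* replicate 4), and the count at an unadjusted p under 0.05 ran from 2 to 7, with 2 without *Winnie* replicate 7 and 3 without C57BL/6 replicates 3, 6, 7 or 8 or *Winnie* replicates 3, 6 or 8. The number past the threshold of the study's methods was 0 throughout. The median log2 fold change ran from -0.06 to 0.06 under the 11 other settings and from -0.11 to 0.00 when single brains were left out. Without *Winnie* replicates 6 and 7 it was positive, as were *Enpp2* (0.05), *Kl* (0.08), *Prlr* (0.09), *Aqp1* (0.11) and *Slc31a1* (0.01). When single brains were left out, *Kl* ran from -0.11 to 0.01, *Prlr* from -0.12 to 0.02, *Slc31a1* from -0.05 to 0.01 and *Otx2* from -0.07 to 0.01.

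Between the labelled sexes of *Winnie*, the number past the FDR was 3 with edgeR, 0 without *Winnie* replicates 6 and 7, and 0 to 5 when single brains were left out (5 without *Winnie* replicate 3 or 10, 2 without C57BL/6 replicate 4 or 10), while the median difference ran from 0.34 to 0.55 under the other settings. The interaction count ran from 0 to 1 without single brains, and 8 genes instead of 18 had an unadjusted p under 0.05 without *Winnie* replicates 6 and 7. For the labelled sexes and the interaction, shares of all genes are not given for the fits without single brains. By permutation, 25 genes correlated positively with *Ttr* at an unadjusted p under 0.05. The count was 5 without the 2 brains farthest from its median and 1 within C57BL/6 (*Rdh5*, r = 0.67), where *Col8a1* correlated negatively at such a p (r = -0.72). These permutations were run for genes of the list only, so the counts have no share of all genes to be read against. With the mean of the other genes as the reference, the median correlation of the same 33 genes was 0.75, and no permutation count was made. The causes were not tested beyond these omissions.

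With the replicate number as a block, 0 genes of the list passed the FDR and the median stayed at -0.05, and 227 instead of 434 of all genes passed. The numbers do not pair the brains: same-numbered brains correlated at -0.293 to 0.151, and 2 of the 10 correlations were over 0.1. For 1 C57BL/6 brain the best match was its own number. Depth limits *Krt8* most, with 4 to 14 reads.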
